A study of Homo sapiens with 8 samples.

Results

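The data cover 1041 human genes that are read in the THP-1 line through at least 2 distinct 3′ UTR segments, where a segment is a stretch of 3′ UTR counted as 1 feature. They were taken from 8181 genes with a covered segment (12.7%) and hold 2233 segments of 64545 in the deposited counts. A gene entered when at least 2 of its segments had different starts and a mean total of at least 100 reads over the 7 chase libraries, and when the smaller summed total was under 80% of the larger. Totals summed over the chase therefore chose the genes, and summed totals are given as a description. The labelled share of the reads and the course of the totals in time were not used in the choice.

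THP-1 is an established line from an acute monocytic leukaemia. The cells received 30 µM 4-thiouridine (4sU) for 12 h with fresh medium every 3 h, were washed, and were chased in 3 mM uridine. RNA made during the pulse carries 4sU, which is read as T-to-C changes after alkylation, and the percentage of a segment's reads with such changes is called its labelled share. There was 1 library at each of 0 h, 20 min, 40 min, 1 h, 2 h, 8 h and 12 h of chase and 1 library from cells without 4sU, all by 3′ mRNA sequencing.

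Many genes can end their mRNA at more than 1 place. Poly(A) sites in tandem in 1 last exon give a short and a long 3′ UTR with the same coding sequence, while intronic poly(A) sites or alternative last exons also change the end of the protein. The stretch that is gained or lost can hold sites for microRNAs and for proteins that bind AU-rich elements, through which 3′ UTRs are known to set how long an mRNA lasts. Cleavage usually follows a hexamer, AATAAA or its variant ATTAAA, a short way upstream of the cut.

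Counts summed over all segments came to between 7046260 (no 4sU) and 27773214 (8 h). Those of the compared segments came to 737386 without 4sU and 2458739 (12 h) to 3282023 (8 h) in the chase. A read in overlapping segments counts in each, so these sums exceed the number of reads counted. The monocytic markers CD14, LYZ, CSF1R, ITGAM, CD33 and SPI1 were read in every chase library, from 169 reads upward in the most covered segment of each, while MPO had 8 to 26. Among markers of other cells, CD3E and HBB were at 0 throughout, and MS4A1, EPCAM and KRT8 had at most 11 reads. Without 4sU, 54 reads of the upstream and 70 of the downstream segments counted as labelled, or 0.0205% and 0.0148%. With 1 library per time, each test below sets a difference against the scatter of the 7 chase libraries around a fitted line (5 residual degrees of freedom). Whether the times are separate cultures is not stated in the labels. Intervals are 95% exact (Clopper-Pearson) binomial intervals and cover counting error only, since no molecular identifiers are given in the sources used here.

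There were 917 genes with 2 kept segments and 18 with 4, and all but 3 of the others had 3. Those 3 had 5, 6 and 7, the last being NAP1L1, a histone chaperone gene. One pair per gene was compared, the most covered segment and the next kept one, called upstream and downstream by their hg19 starts along the transcript. The segments lay apart in 213 pairs and overlapped in part in 150. In 554 pairs one segment lay inside the other, 90 pairs shared a 3′ end within 20 bases, and 34 had no model for a segment. Segments that overlap count shared reads in both, which draws their values together. The position in the counts is the lower coordinate of a segment, which is its 3′ end on the minus strand and its 5′ end on the plus strand. On the plus strand a downstream segment inside the upstream one therefore has the more proximal 3′ end. This holds for ZNF207, DEGS1, COX4I1, DRG2 and LST1 below. There were 736 pairs on the minus strand and 305 on the plus strand. The smaller total was a median of 48.2% of the larger. It was 79.9% for THAP1, just inside the limit, and 80.0% for RAB1A, just outside it, and a further 921 genes had covered distinct segments that were all at least as alike as the limit. The lowest kept mean total was 100 reads (HELLS), and LIMK2 had 99.6, just outside.

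The ends of 8 segments that carry the main findings are printed here to show that both members of a pair can end behind their own poly(A) signal. Each line gives 30 bases 5′ to 3′ around the hexamer nearest the end, in GENCODE 29 transcript sequence matched by transcript identifier, with the hexamer in capitals.
TM2D1 upstream (chromosome 1, minus strand, hg19 start 62163181): catttataactcAATAAAgctgttttaaaa
TM2D1 downstream (start 62146718): ttgtttctgaaaAATAAAagtataacttat
KMT5B upstream (chromosome 11, minus strand, start 67933182): gttgattctcatAATAAAtgcagcataacg
KMT5B downstream (start 67922330): tcattttaataaattcggaaATTAAAacaa
MKRN1 upstream (chromosome 7, minus strand, start 140155980): aaagctacaagaAATAAAtttatttaaacg
MKRN1 downstream (start 140152840): ccaaataaaacaATTAAAaaaaaagttggc
CAPRIN1 upstream (chromosome 11, plus strand, start 34119329): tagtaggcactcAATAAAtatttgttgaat
CAPRIN1 downstream (start 34120915): attttaaaataaAATAAAataagttcttga

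AATAAA or ATTAAA, searched on the RNA strand only, stood in the last 50 bases of 71.0% of 12071 segments of the series with a mean total of at least 100. The share was 78.8% for the more covered segment of a pair (n = 1019) and 45.9% for the less covered (n = 987). Among pairs that lay apart it was 69.2% of 182 upstream and 80.9% of 209 downstream segments. These shares describe the annotated ends and are not tests, because totals chose the pairs.

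Label was lost from nearly every segment during the chase. The labelled share fell in 2036 of the 2233 kept segments (91.2%, edgeR quasi-likelihood test with Benjamini-Hochberg adjustment, adjusted p under 0.05) and rose in 1, against a fall in 93.7% of all 15802 distinct segments tested. Both segments fell in 924 pairs, 1 of them in 52 and neither in 65. In order of chase time, the median labelled share of the upstream segments was 38.8, 37.3, 37.4, 36.5, 30.9, 7.82 and 2.29%. That of the downstream segments was 42.2, 41.9, 42.3, 40.6, 34.1, 7.91 and 2.16%. Both medians were close to level for the first hour. Their largest fall between neighbouring libraries lay between 2 h and 8 h, which is also the longest interval, so it is not a fall per hour.

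Segments of 1 gene lost their label at different rates in a minority of genes. The slope of the log2 labelled share differed in 184 of 1041 pairs (17.7%, edgeR, adjusted p under 0.05). In 129 pairs (12.4%) the downstream segment lost label faster and in 55 (5.28%) it lost label more slowly. Without the 8 h library the count was 85, and with the libraries from 0 to 2 h alone it was 14. The labelled share is a ratio to the segment's own total, so on labelled reads alone, an alternative chosen after seeing the data, 109 pairs were called, 92 of them among the 184 and all 92 in the same direction. Half-lives of the labelled share, which count dilution by unlabelled reads as loss, were resolved for both segments in 919 pairs, with medians of 3.25 h upstream and 3.10 h downstream. The longer half-life exceeded the shorter by a median of 1.11-fold, by over 1.5-fold in 143 pairs and by over 2-fold in 66.

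**Figure D1:**
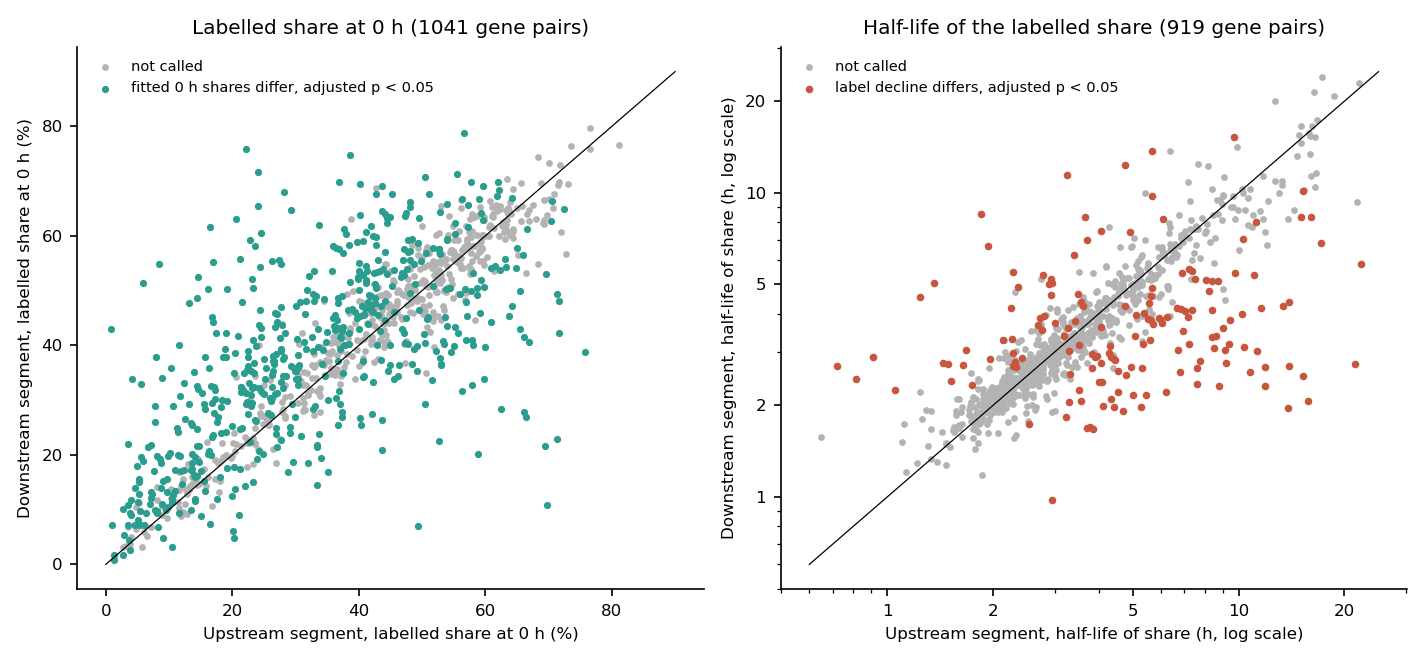
Each point is 1 gene, with the upstream segment on the x axis and the downstream segment on the y axis: labelled share at 0 h in percent for 1041 pairs (left) and half-life of the labelled share in hours, log axes, for 919 pairs (right). Coloured points have an adjusted p under 0.05 (edgeR) for the fitted share at 0 h (left, 553 pairs) or for the slope (right), the line marks equality, and most pairs lie near it while 86 pairs are over 20 percentage points apart at 0 h.

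The calls were unevenly spread over the layouts. With the distal segment defined by its 3′ end where segments overlap and by its start otherwise, 104 of the 213 pairs that lay apart were called (48.8%, against 17.7% of all pairs): the distal segment lost label faster in 70 and more slowly in 34. Of the 554 pairs with one segment inside the other, 9.21% were called, 39 faster and 12 slower at the distal end. The partly overlapping pairs gave 18 faster and 0 slower calls (12.0%, with 5 slower at an unadjusted p under 0.05 and 0 in DESeq2), those with a shared 3′ end 4 and 2 (6.67%), and those without a model 1 and 4 (14.7%). When the reads of the smaller segment were subtracted from the larger, so that no read counted in both, 21.9% of 552 such inside pairs were called, 82 faster and 39 slower, and 26.1% of 138 partly overlapping pairs, 28 and 8. Faster loss at the distal end was the more frequent call among pairs that lay apart, overlapped in part or lay one inside the other, and the less frequent one among the few calls without a model. Segments with a shared 3′ end have no distal member by that end, and their order is that of the starts. The differences between layouts were not tested.

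**Figure D2:**
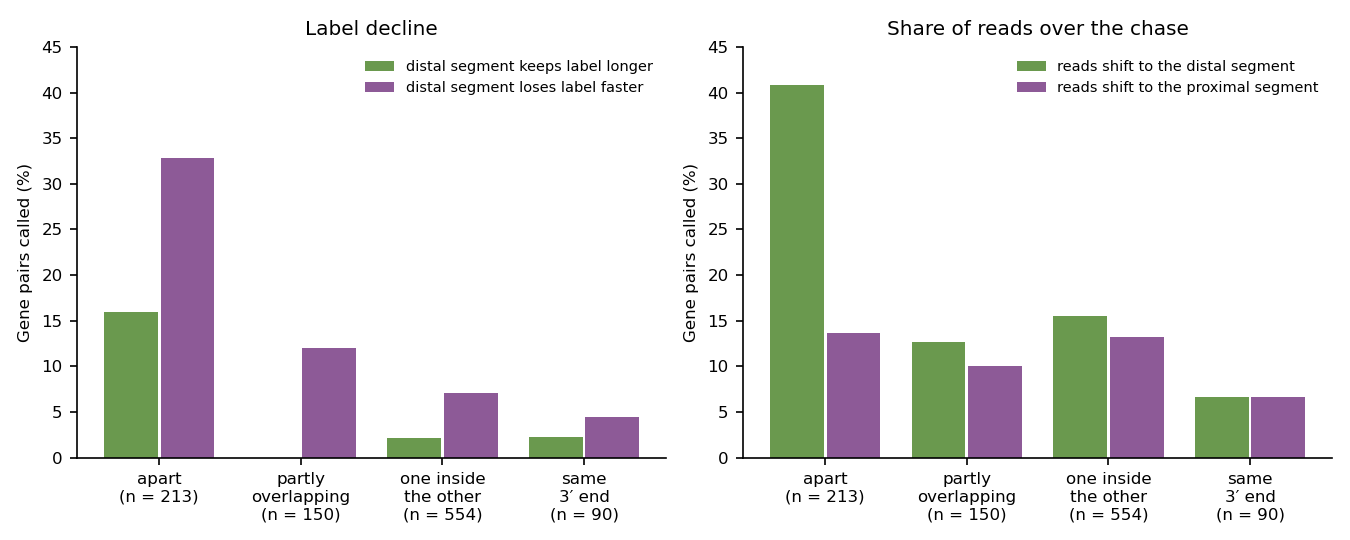
Bars give the percentage of gene pairs called (edgeR, adjusted p under 0.05) for each layout of the segments, for the slope of the labelled share (left) and for the share of reads over the chase (right), by direction at the distal segment (ordered by start where segments lie apart or share a 3′ end). Pairs that lay apart had 34 slower and 70 faster label declines and 87 shifts of reads to the distal against 29 to the proximal segment.

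In SCAF11, TM2D1 and PTK2B, the largest slower losses downstream among pairs open to naming, most of the upstream share was gone by 2 h. Their downstream segments kept most of the labelled share over that time. SCAF11 encodes a splicing factor with arginine and serine repeats. Its upstream segment (chromosome 12, minus strand, start 46348517) had labelled shares of 41.9, 35.1, 21.2, 14.7, 5.50, 0.283 and 0% in the chase libraries in order of time, with an interval of 36.2 to 47.8% at 0 h. The downstream segment (start 46315192) had 61.8, 59.4, 57.0, 57.5, 51.5, 5.20 and 2.67%. The downstream share was the higher in all 7 libraries, and the upstream share was already falling at 20 min. The slopes differed by 1.04 ± 0.16 log2 per h (SE, adjusted p = 0.00151, edgeR), and the half-lives were 0.72 ± 0.14 h and 2.70 ± 0.41 h. Upstream totals were 291 reads at 0 h and 399 at 12 h, where 0 labelled reads allow a share of up to 0.752% (3 reads of the total) or 0.920% by the exact interval. SCAF11 has 3 kept segments, and with its most against its least covered one the difference was -1.05 log2 per h.

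TM2D1, which encodes a membrane protein of the TM2 domain family, had the same course. Its upstream segment had shares of 42.4, 42.2, 32.7, 23.0, 7.75, 0.331 and 0%, and its downstream segment 51.3, 56.2, 47.2, 51.4, 49.3, 8.86 and 1.73%. The segments were near each other at 0 h and far apart at 2 h. The difference of the slopes was 1.02 ± 0.12 log2 per h (adjusted p = 0.000487, edgeR), with half-lives of 0.91 ± 0.13 h and 2.88 ± 0.38 h. PTK2B, the gene of the tyrosine kinase Pyk2, fell from 33.7% to 5.08% upstream between 0 h and 2 h (chromosome 8, plus strand, start 27309158), while the downstream share went from 62.0% to 47.1% (start 27316027). Its slopes differed by 0.98 ± 0.13 log2 per h (adjusted p = 0.000933, edgeR). On labelled reads alone the differences were 0.69 for SCAF11, 0.77 for TM2D1 and 0.88 for PTK2B, all with adjusted p under 0.05 in edgeR (0.00631, 0.000811 and 0.000991).

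TRA2B, a splicing activator, fell upstream from 51.2% at 0 h to 28.9% at 1 h and 18.3% at 2 h, against 56.9, 53.8 and 48.6% downstream. The model of its upstream segment holds only 18 bases. Its call (0.34 ± 0.10, adjusted p = 0.0388, edgeR) was lost on labelled reads alone (adjusted p = 0.117), in DESeq2 (0.574) and without the 0 h, 20 min, 40 min, 2 h or 8 h library (0.0608 to 0.111).

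IDS, the lysosomal enzyme iduronate 2-sulfatase, showed a surge of its upstream segment. Upstream totals (chromosome X, minus strand, start 148584190) were 173, 430, 779, 1428, 1032, 172 and 104 reads over the chase, and its labelled reads 101, 176, 250, 355, 191, 13 and 2. The downstream segment (start 148558521) had 822, 856, 971, 1282, 1765, 1918 and 1252 reads. The upstream segment was highest at 1 h in both measures, and its labelled share fell from 58.4% to 24.9% over that hour. The slopes of the labelled share differed by 0.26 ± 0.06 log2 per h (adjusted p = 0.0190, edgeR, and 0.0853 without the 12 h library). With the most against the least covered of its 3 kept segments the difference was -0.071. In the 12 h library the first 2 segments had labelled shares of 17.6% (downstream) and 1.92% (upstream). The downstream segment also lies over an exon of AC244197.3 on the same strand, and the part of its reads in this result was not tested. INTS7, a subunit of the Integrator complex, and SSU72, a phosphatase of the RNA polymerase II tail, had differences of 0.25 ± 0.05 and 0.24 ± 0.06 log2 per h (adjusted p = 0.0288 and 0.0336, edgeR). Neither call held without the 8 h library (adjusted p = 0.447 and 0.314) or without the 12 h library (0.0575 and 0.127), and leaving out 1 h or 2 h also ended that of SSU72 (0.0506 and 0.0519). In DESeq2 the adjusted p of INTS7 was 0.0941.

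**Figure D3:**
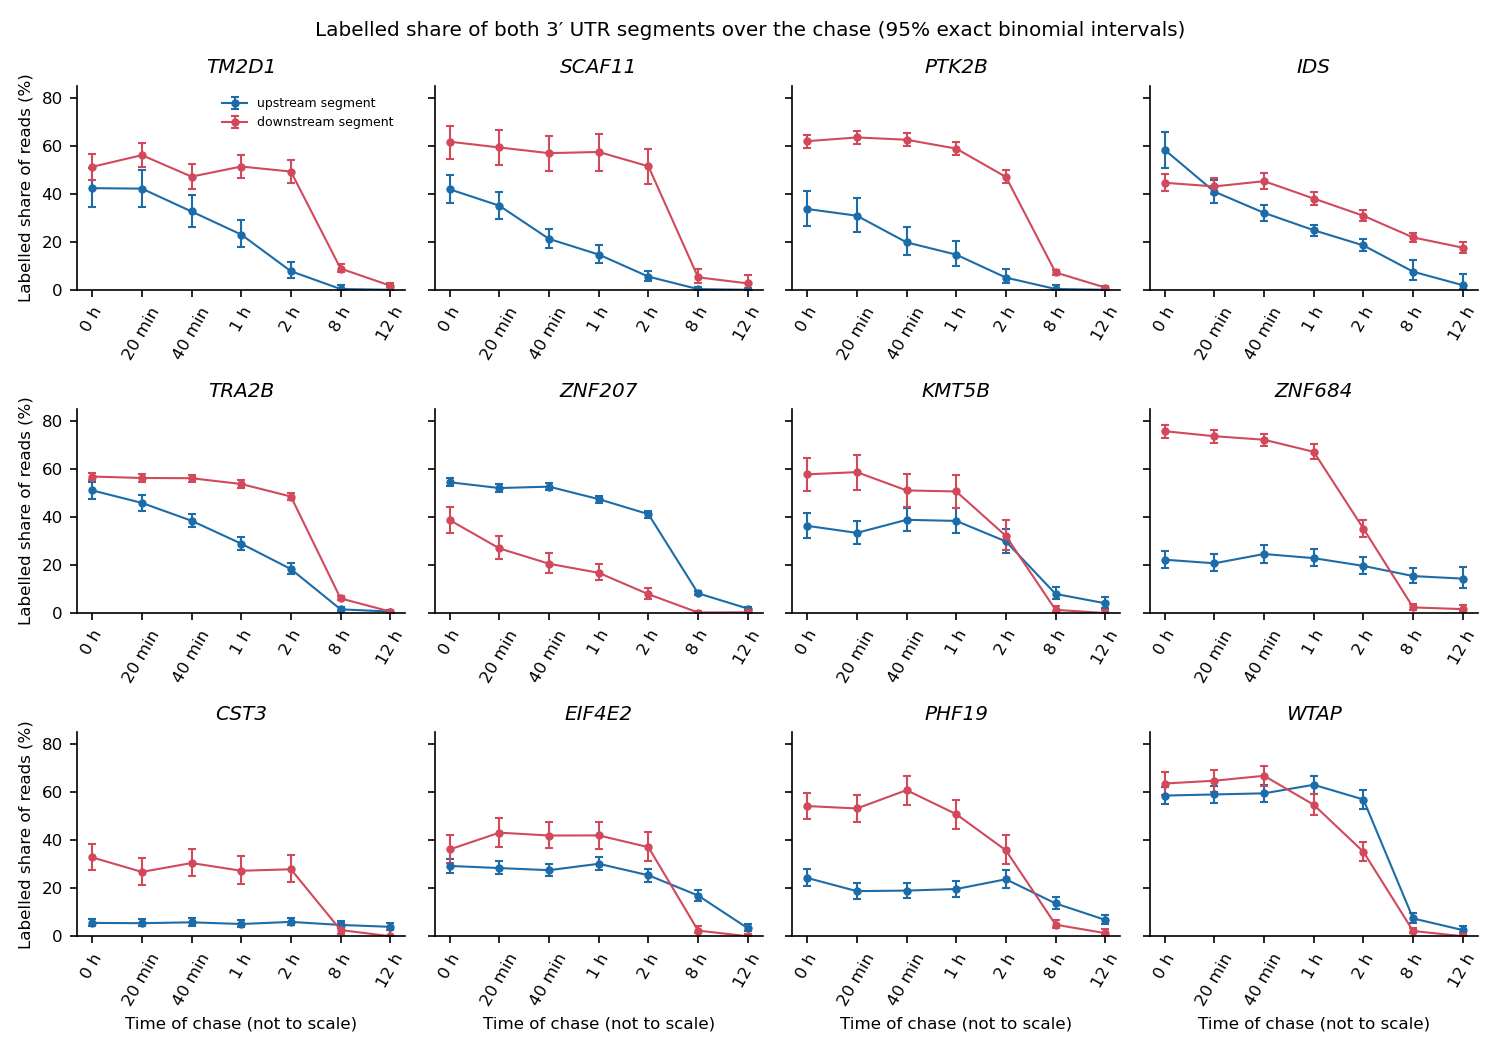
Labelled share in percent at each chase time (points, 1 library each, x axis not to scale) with 95% exact binomial intervals, for the upstream and the downstream segment of 12 genes. In TM2D1, SCAF11, PTK2B, TRA2B and IDS the upstream share fell further during the first 2 h than the downstream share, in ZNF207 the order was the opposite, and in ZNF684, CST3, EIF4E2 and PHF19 the downstream share was higher early and lower at 8 h and 12 h.

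Among pairs with faster loss downstream, ZNF684 and CST3 kept most of their upstream share to 12 h. ZNF684 encodes a KRAB zinc-finger protein. Its upstream segment (chromosome 1, plus strand, start 41010129) had shares of 22.2, 20.7, 24.6, 22.9, 19.7, 15.4 and 14.3%, and its downstream segment (start 41013133) 75.8, 73.7, 72.3, 67.2, 35.2, 2.34 and 1.63%. The order of the segments turned between 2 h and 8 h. The slopes differed by -0.51 ± 0.03 log2 per h (adjusted p = 1.84e-05, edgeR), with half-lives of 15.7 ± 3.7 h and 2.06 ± 0.35 h, and on labelled reads alone by -0.60 (adjusted p = 0.000212, edgeR).

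CST3, the gene of the secreted protease inhibitor cystatin C, had the same crossing at a lower level. Upstream shares (chromosome 20, minus strand, start 23614285) were 5.57, 5.45, 5.81, 5.11, 5.99, 4.71 and 3.93%. Downstream shares (start 23608534) were 32.9, 26.8, 30.5, 27.3, 27.9, 2.59 and 0%, where 0 of 131 reads allow up to 2.29% (3 reads of the total) or 2.78% by the exact interval. The downstream segment was the higher from 0 h to 2 h, and its value at 8 h lay below the upstream one. The slopes differed by -0.42 ± 0.04 log2 per h (adjusted p = 0.000213, edgeR), and by -0.48 on labelled reads alone (adjusted p = 0.000469). The downstream segment held 24.4% of the reads of both segments at 0 h, 13.2% at 12 h and 2.54% without 4sU.

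KMT5B, a histone H4 lysine methyltransferase, had upstream shares of 36.4, 33.4, 38.9, 38.4, 29.9, 7.96 and 4.07% and downstream shares of 57.8, 58.8, 51.1, 50.7, 32.1, 1.32 and 0%. Its slopes differed by -0.42 ± 0.04 log2 per h (adjusted p = 0.000138, edgeR), with half-lives of 3.70 ± 0.46 h and 1.69 ± 0.21 h. The downstream segment began the higher and ended the lower, as in CST3 and ZNF684. PHF19, a Polycomb accessory protein, went from 24.3% to 6.82% upstream and from 54.3% to 1.29% downstream between 0 h and 12 h (slope difference -0.36 ± 0.04, adjusted p = 0.000168, edgeR). EIF4E2, a cap-binding repressor of translation, went from 29.3% to 3.35% and from 36.2% to 0% (-0.38 ± 0.06, adjusted p = 0.00151, edgeR). Without the 8 h library the adjusted p of EIF4E2 was 0.215, with 0 to 2 h alone its slope difference was 0.058, and its downstream segment lies over an exon of AC073254.1 on the opposite strand.

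ZNF207, a spindle and kinetochore protein, was the pair with the largest faster loss downstream among those open to naming. Here the small downstream segment lies inside the larger one. Its 3′ end is the more proximal, so by 3′ end the distal segment lost label more slowly. Upstream shares (chromosome 17, plus strand, start 30696779) were 54.5, 52.1, 52.7, 47.5, 41.2, 8.22 and 1.86%, and downstream shares (start 30704940) 38.8, 27.0, 20.5, 16.8, 7.84, 0.215 and 0.284%. The downstream share was the lower in all 7 libraries. The slopes differed by -0.67 ± 0.11 log2 per h (adjusted p = 0.00196, edgeR), and downstream totals went from 325 reads at 0 h to 703 at 12 h while upstream totals went from 3585 to 2748. WTAP, a subunit of the m6A methyltransferase, and PRMT2, an arginine methyltransferase, had differences of -0.33 ± 0.05 and -0.32 ± 0.05 log2 per h (both adjusted p = 0.00196, edgeR). On labelled reads alone these were not called (adjusted p = 0.124 and 0.193), PRMT2 had an adjusted p of 0.0606 without the 8 h library and a difference of 0.042 with 0 to 2 h alone, and the upstream segment of WTAP lies over an exon of SOD2 on the opposite strand. The model of the upstream PRMT2 segment holds only 46 bases.

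The level of label at the end of the pulse also differed within genes. The fitted share at 0 h differed in 553 of 1041 pairs (53.1%, edgeR, adjusted p under 0.05), higher downstream in 395 (37.9%) and lower in 158 (15.2%). The median absolute difference of the measured shares was 5.23 percentage points, 10.7 among pairs that lay apart, and it exceeded 20 points in 86 pairs. A read with more uridines has more places where a conversion can be seen, and T content is therefore given beside the level. Across 171 pairs that lay apart, with at least 100 bases each, Spearman's rho between the difference in T content of the last 200 bases and the difference in fitted share was 0.45. The same T content had a rho of 0.07 with the difference in slope. Pairs share libraries and sequence composition differs among them, so both coefficients are descriptions, and the part of T content in the level was not tested.

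ZBTB7A, a transcriptional repressor gene of blood cells, had the largest fitted difference on the log2 scale among the pairs open to naming, with 0.814% labelled upstream (interval 0.265 to 1.89%) and 43.0% downstream (41.6 to 44.3%). Its upstream model holds 10 bases with a T content of 0%. NFIC, a nuclear factor I gene, had 4.21% and 33.8%, with T contents of 11.5% and 25.5%. For RPS29, a small-subunit ribosomal protein, the shares were 5.95% and 51.4%, with 30.5% T in both, and the downstream segment lies over RPL32P29, a ribosomal protein pseudogene, on the same strand. The upstream RPS29 segment held its share to 12 h (6.86%) and the downstream one fell little (43.7%). In the other direction stood ENSA, a phosphatase inhibitor of mitosis, with 49.4% upstream and 7.07% downstream (T content 30.0% and 19.5%). DRG2, a GTPase, had 20.1% and 6.19% (T content 22.5% and 21.5%). COX4I1 of respiratory complex IV had 10.5% and 3.24% (T content 18.5% and 22.5%). LST1, a leukocyte gene, had 16.5% and 7.33% (T content 29.5% and 13.6%). These 7 genes and CST3 (T content 22% upstream and 20% downstream) were called with adjusted p of at most 5.53e-06 (edgeR). In COX4I1 and CST3 the segment with the higher share had the lower T content. Of the 4 genes with the higher upstream share 3, all but ENSA, have one segment inside the other. In these 3 the upstream segment is the distal one by 3′ end.

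Total reads moved between segments during the chase in more genes than the slope of the label did. The ratio of the totals changed with time in 330 of 1041 pairs (31.7%, edgeR, adjusted p under 0.05), towards the downstream segment in 205 (19.7%) and towards the upstream segment in 125 (12.0%). With the libraries from 0 to 2 h alone 3 pairs were called. Among pairs that lay apart 54.5% were called, 87 towards the distal and 29 towards the proximal segment. Of the 109 pairs called for both the label and the totals, 90 had opposite signs, and both measures contain the same totals. The decline in label share therefore has to be read beside the totals.

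MKRN1, a ubiquitin ligase gene, shows this. Its upstream totals were 655, 634, 641, 573, 578, 309 and 124 reads over the chase, and the downstream totals 739, 687, 842, 779, 800, 1126 and 737. The downstream segment held 53.0% of both at 0 h and 85.6% at 12 h (slope 0.21 ± 0.01 log2 per h, adjusted p = 7.99e-06, edgeR). The shift lay between the 2 h and the 12 h library, and the library without 4sU, with 88.6%, was near the 12 h value. The labelled share fell from 54.2% to 12.1% upstream and from 53.0% to 1.49% downstream, a slope difference of -0.27 ± 0.04 (adjusted p = 0.000861, edgeR). On labelled reads alone the difference was -0.07 (adjusted p = 0.516).

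SON and CAPRIN1 gave values of the same kind. SON encodes a nuclear speckle protein of splicing, and its downstream segment (chromosome 21, plus strand, start 34948731) held 60.1% of reads at 0 h, 88.8% at 12 h and 93.2% without 4sU. Its upstream totals went from 575 to 95 reads (start 34929858). CAPRIN1, a stress granule protein, went from 64.1% to 88.9% downstream, with 96.8% without 4sU. The usage slopes were 0.22 ± 0.01 and 0.18 ± 0.01 log2 per h (adjusted p = 2.54e-05 and 5.45e-06, edgeR). On labelled reads alone the segments did not differ in either gene at the threshold (0.03, adjusted p = 0.767, and -0.00, adjusted p = 0.970). SLC30A5, a zinc transporter, went from 37.7% to 66.5% downstream with 57.1% without 4sU (0.16 ± 0.02, adjusted p = 0.000456, edgeR), and IDS from 82.6% to 92.3%, with its lowest value at 1 h (0.28 ± 0.07, adjusted p = 0.0207). Leaving out 8 h or 12 h ended the IDS call (adjusted p = 0.0655 and 0.0675). With 0 to 2 h alone the usage slope was -0.12 for SLC30A5 and -0.37 for IDS, the opposite direction.

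Reads moved upstream in ESCO2, a cohesin acetyltransferase, where the downstream segment held 23.4% at 0 h, 10.3% at 12 h and 9.40% without 4sU (-0.15 ± 0.02 log2 per h, adjusted p = 0.00191, edgeR). ATP2C1, the Golgi calcium and manganese pump, went from 52.4% to 34.3%, with 7.76% (9 reads) without 4sU. PRPF38B, a splicing factor gene, went from 68.5% to 46.1% with 63.3% without 4sU, and DEGS1, a ceramide-forming desaturase, from 32.1% to 17.8% with 21.5%. The downstream segment of DEGS1 lies inside the upstream one, so its reads count in both totals. By 3′ end the upstream segment of DEGS1 is the distal one, so its shift was towards the distal segment. RPS29 had 1.41% at 0 h, 0.522% at 12 h and 0.0136%, 1 read, without 4sU. In 4 of these 5 genes the library without 4sU was nearer to 12 h than to 0 h, and PRPF38B was the exception. In ESCO2 the downstream totals first rose, from 172 reads at 0 h to 322 at 2 h, and were 108 at 12 h, and with 0 to 2 h alone its usage slope was 0.21 and that of DEGS1 0.024. The adjusted p of the last 4 was at most 0.00264 (edgeR). Exons of other genes on the opposite strand lie over the downstream segments of ATP2C1 and SLC30A5 and over segments of DRG2 and LST1, and the sources used here do not say whether the counting used strand.

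Over the 330 called pairs the log2 ratio of the segments without 4sU was nearer to that at 12 h in 238, with a median distance of 0.77 from 0 h and 0.59 from 12 h. Over all 1041 pairs it was nearer to 12 h in 662 (0.51 and 0.45). The library without 4sU is 1 library of lower depth, so a single pair is measured with few reads there, and how far exposure to 4sU moves with the ratio was not tested.

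**Figure D4:**
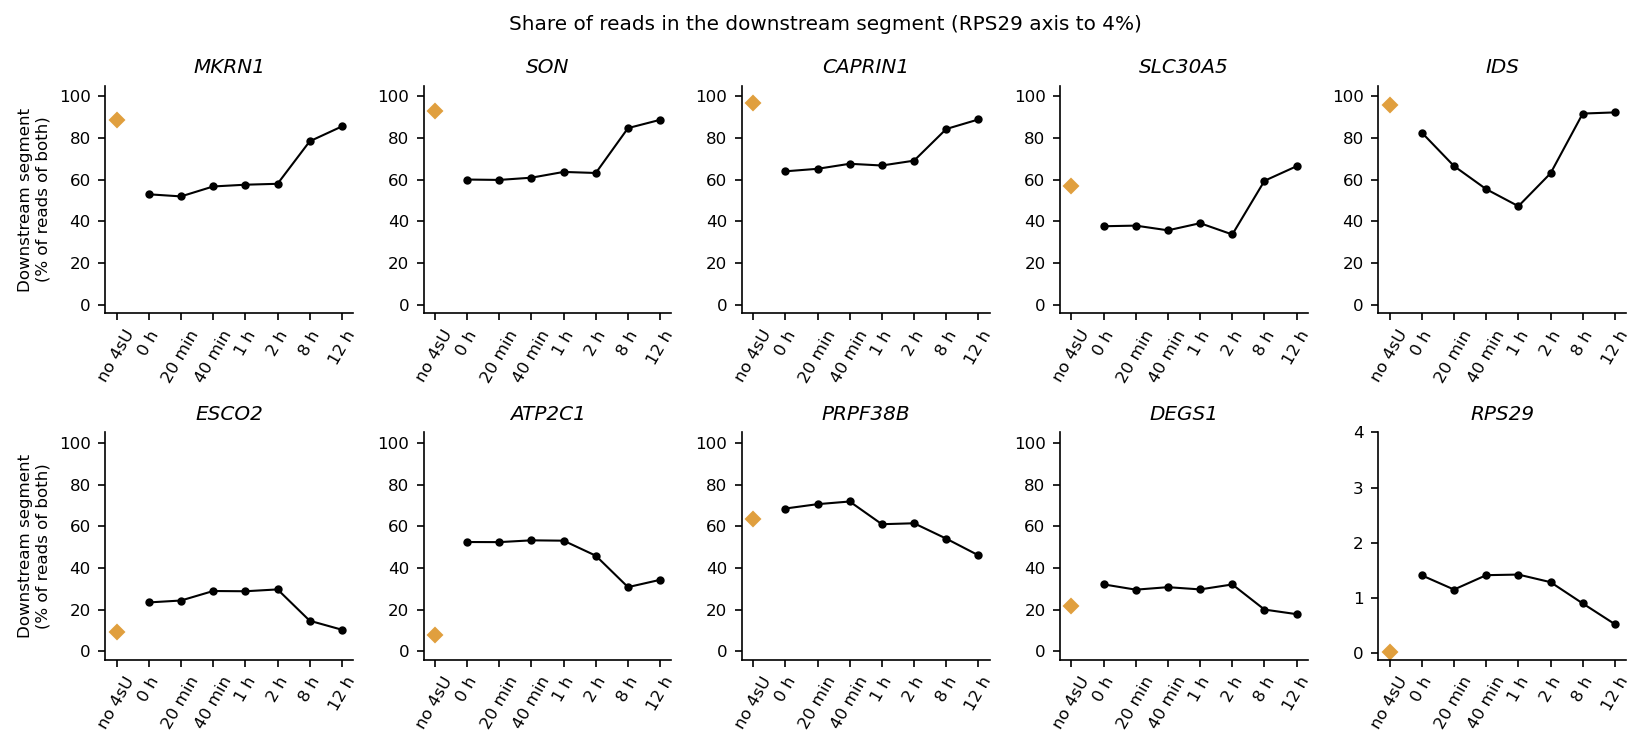
Percentage of the reads of both segments that lay in the downstream segment, in each chase library (circles, 1 library each, x axis not to scale) and without 4sU (diamond), for the 5 genes with the largest called shift to each side. MKRN1 went from 53.0% to 85.6% with 88.6% without 4sU, while ESCO2 went from 23.4% to 10.3% with 9.40%. In DEGS1 the downstream segment lies inside the upstream one, so its reads count in both, and its 3′ end is the more proximal.

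AU-rich sequence was compared between the segments of pairs that lay apart. ATTTA, searched on the RNA strand, occurred in 65.5% of all 12071 covered segments. Where the downstream segment lost label faster it was found in 79.7% of 69 downstream and 52.3% of 65 upstream segments, and where it lost label more slowly in 64.7% of 34 downstream and 80.6% of 31 upstream segments. Pairs with no call had 66.0% of 106 and 55.8% of 86. The segment with the faster loss held the motif more often in both called classes, and it was also the longer one by median (1649 against 573 bases, and 1444 against 587.5 bases). How much of this comes with length was not tested. The longer motif TTATTTATT, which contains ATTTA, occurred in 7.07% of all segments.

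Of 37 genes known for alternative polyadenylation or alternative last exons 10 were among the genes studied, and their median slope difference was -0.00, as over all pairs. FNDC3B, a membrane protein gene, lost label faster downstream (-0.50 ± 0.04 log2 per h, adjusted p = 4.08e-05, edgeR), and so did HNRNPK, an RNA-binding protein, by -0.03 (adjusted p = 0.00235, not called in DESeq2). These 2 of 10 stand beside 17.7% of all pairs. Of the 10, 7 had a higher share downstream at 0 h (37.9% of all pairs), among them ELAVL1, an RNA-binding protein that stabilises AU-rich mRNAs and DICER1, which cuts microRNA precursors. T content was 32% upstream and 34.5% downstream in ELAVL1, and 18.9% and 38% in DICER1. Reads shifted downstream in 5 (19.7% of all pairs) and upstream in 1, DICER1 (12.0% of all pairs).

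Of 51 splicing factor genes 17 were among those studied. The label was lost more slowly downstream in 5 (SCAF11, TRA2B, SF1, HNRNPR and HNRNPDL) and faster in 3 (SON, SRSF2 and HNRNPK), of which 5 were called in DESeq2 (SCAF11, SF1, HNRNPR, SON and SRSF2). Over all pairs 17.7% were called. On labelled reads alone SCAF11, SF1 and HNRNPK kept the call, and the adjusted p of TRA2B, HNRNPR, HNRNPDL, SON and SRSF2 lay between 0.117 and 0.767 (edgeR). Reads shifted downstream in 5 and upstream in 2, against 31.7% of all pairs in either direction. SF1, the branch point binding protein, had half-lives of 2.93 ± 0.52 h upstream and 4.61 ± 0.62 h downstream (slope difference 0.16 ± 0.02, adjusted p = 0.00158, edgeR). Of 26 cleavage and polyadenylation factors 5 were present and 0 were called for the slope, in edgeR or DESeq2, with 0 at an unadjusted p under 0.05. PAPOLA, the poly(A) polymerase, was the 1 called for its totals, with 77.3% of reads downstream at 0 h, 90.7% at 12 h and 93.8% without 4sU (0.13 ± 0.02, adjusted p = 0.00107, edgeR).

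None of the 11 leukaemia and haematopoietic regulators present, of 40, was called for the slope in edgeR, with 2 at an unadjusted p under 0.05 (NPM1 and RUNX1) and 1, NPM1, called in DESeq2. Over all pairs 17.7% were called in edgeR, and 11 genes are too few to read 0 calls as a trait of the list. HOXA9, HOXA10, IKZF1, RUNX1 and RUNX3, transcription factors of blood cells, had higher shares downstream at 0 h, as did ZEB2, and NPM1, a nucleolar chaperone, a lower one (-0.75 ± 0.03 log2, adjusted p = 1.31e-07, edgeR). Over all pairs the 0 h share was called higher downstream in 37.9% and lower in 15.2%. T content upstream and downstream was 18% and 39% for HOXA9, 29% and 40.5% for HOXA10, 14% and 24.5% for RUNX1, and 21% and 33.5% for RUNX3. It was 31.5% and 29.5% for ZEB2 and 37.5% and 35% for NPM1, and the upstream segment of IKZF1 has no model. Both HOXA9 segments also lie over AC004080.3 on the same strand. HOXA9 had half-lives of 2.07 ± 0.45 h and 2.23 ± 0.22 h, a difference within their errors. RUNX1 had 1.11 ± 0.27 h and 1.74 ± 0.18 h (slope difference 0.43 ± 0.15, adjusted p = 0.0868). Among immediate-early and feedback genes 3 of 37 were present and 0 were called for the slope in edgeR or DESeq2, with 1 (MCL1) at an unadjusted edgeR p under 0.05. These 0 of 3 stand beside the same 17.7% of all pairs. MCL1, which blocks apoptosis, shifted from 96.0% to 99.4% downstream (0.26 ± 0.04, adjusted p = 0.00128, edgeR).

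Of 61 chromatin regulator genes 6 were present. NSD2, a histone H3 methyltransferase, lost label more slowly downstream (slope difference 0.10 ± 0.03, adjusted p = 0.0463, edgeR, not called in DESeq2), and EZH2, the Polycomb methyltransferase, was called for its level and its totals only. Of 61 ubiquitin genes 8 were present, and UBE2N, which builds lysine-linked ubiquitin chains, was the 1 called for the slope (-0.22 ± 0.04, adjusted p = 0.00239, edgeR), with half-lives of 8.63 ± 2.90 h and 3.39 ± 0.51 h. These counts are descriptions, to be read beside the 17.7% of all pairs.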

How the data were processed

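The authors deposited raw read counts per 3′ UTR segment, total and converted ("nascent", here labelled), for 8 libraries. Trim Galore 0.6.5 and bcl2fastq 2.17.1.14 are named by the submitters' processing notes, with builds dm3 and hg19. Not given in the sources used here are the aligner, the counter and the conversions that make a read labelled. Transcripts were named through GENCODE 29 (48045 matched, 84.9%), which also gave segment models and sequences by identifier.

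Members, lists and tests were chosen with earlier results of these data known. Labelled counts (offset: log of the segment's total) or total counts of both segments were fitted on hours with library as a block in edgeR 4.0.16 (R 4.3.3), quasi-likelihood, and Benjamini-Hochberg adjusted over all 1041 pairs. Code was tested on simulated data. Named genes are the 8, 5 and 4 largest called differences in each direction for slope, totals and 0 h share, among pairs with a mean total of at least 200 in both segments, counts unlike any other gene's and no background over 2%, and list members, which needed none of these limits. Half-lives are binomial fits, resolved between 0.25 and 24 h with an SE of the log rate of at most 0.5. Summed counts, in place of depth in reads, are in the first paragraphs above. Alternatives included DESeq2 1.42.0, other minimums, subtraction, non-overlapping pairs, early libraries alone and leaving out each library. Some genes of the lists and rules are not reported here.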

Additional observations from a re-analysis of the deposited data

How the results depend on the processing

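No paired analysis was possible because the times have 1 library each and so share fewer than 2 replicate numbers, and the library block pairs segments within a library, not times. The 184 label decline differences became 106 with a mean total of at least 200 (645 pairs), 291 after subtraction of the smaller segment (1038 pairs), 119 for pairs that do not overlap alone (213 pairs), 14 with the 0 to 2 h libraries alone and 109 on labelled reads alone. Leaving out each library gave 85 (without 8 h) to 178. The 553 differences at 0 h became 146 in non-overlapping pairs, where fewer pairs were tested, and the 330 changes of totals became 199 at a mean total of 200, 112 in non-overlapping pairs and 3 with 0 to 2 h alone. Leaving out each library gave 496 to 543 and 267 to 310. DESeq2 called 155, 460 and 238. With 0 to 2 h alone, the slope difference was 0.058 for EIF4E2 and 0.042 for PRMT2, and the usage slope 0.024 for DEGS1, 0.21 for ESCO2, -0.37 for IDS and -0.12 for SLC30A5, each reversed. With the most against the least covered segment, another pair of segments, the slope difference was -0.071 for IDS and -1.05 for SCAF11. Apart from fewer pairs or libraries, the cause was not tested. Depth limits the shares at 12 h, where few reads are labelled, and those without 4sU, the shallowest library.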
